A study of Mus musculus with 7 samples.

Results

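Iigp1 and a group of genes around it or related to it were followed in the ventrolateral ventromedial hypothalamus (VMHvl) of female mice given estradiol benzoate (EB) or vehicle. Iigp1, Gm4951, Gm5970 and Smim3 lie beside each other on chromosome 18, and Irgm1, Irgm2 and Igtp are relatives of Iigp1 on chromosome 11. These 7 genes were found by symbol among 48321 genes in each count table, and all 7 were among the 18387 genes tested. They were chosen by the log2 changes and levels of Iigp1 and its neighbours between EB and vehicle in these same libraries, so their changes in that comparison are given as a description, with no test.

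Immunity-related GTPases (IRGs) are a family of interferon-inducible proteins that defend mouse cells against parasites and bacteria that live inside vacuoles. Effector members such as Iigp1 load onto the vacuole membrane and help to break it. The Irgm members sit on the cell's own membranes and hold the effectors inactive there. In most mouse cells interferon gamma switches on many members together.

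All mice were ovariectomized females, so the ovarian source of estrogen was absent in both groups. They were of mixed background with 129/Sv ancestry, descended from a line with a floxed Esr1 gene. The EB group (4 mice) received 1 µg of estradiol benzoate, an ester of estradiol, under the skin, and the vehicle group (3 mice) received the carrier alone. VMHvl was dissected by hand 4 hours later, and each library held RNA of 1 mouse. The comparison asks which transcripts of this region differed 4 hours after estrogen replacement.

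Library totals were 22311424 to 33302293 counts in EB mice and 21037303 to 30909554 counts in vehicle mice. Levels are CPM, counts scaled to library size after TMM normalisation, which allows for library composition. Pgr, the progesterone receptor gene and a classical estrogen target, averaged 207 ± 17.6 CPM in EB mice and 82.2 ± 6.70 CPM in vehicle mice (SD, n = 4 and 3). In edgeR's quasi-likelihood test, 0.952% of tested genes (175) were called changed at an adjusted p under 0.05, and 0.745% (137) were called higher with EB. Of markers of the labelled tissue, Fezf1, a transcription factor of the ventromedial hypothalamus, was at 108 to 152 CPM in EB mice and 129 to 146 CPM in vehicle mice. Nr5a1, the gene that defines that nucleus, was low, at 0.927 to 3.51 CPM in EB mice and 1.14 to 3.15 CPM in vehicle mice. Other markers among the 14 listed were uneven between vehicle mice 1 to 3, with Esr1 at 183, 317 and 169 CPM and Tac1 at 375, 584 and 358 CPM. Nkx2-1, Rprm, Fezf1, Slc17a6, Pgr, Cckar and Nmur2 were also highest of the vehicle mice in vehicle 2. Nr5a1, Sox14, Adcyap1 and Nptx2 were lowest in vehicle 2, and Bdnf lay between. Most of the listed markers were thus highest in vehicle 2. Between the groups, edgeR called 3 of the 14 higher with EB and 0 lower, beside 0.952% of all tested genes. At an unadjusted edgeR p under 0.05 were 8 of the 14, beside 9.04% of all tested genes. DESeq2 called 5 (Slc17a6, Pgr, Cckar, Nmur2 and Nptx2), beside 1.95%, and limma-voom called 3, beside 0.816%. The share of VMHvl in each dissection was not tested.

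Promoters of Irgm1, Irgm2 and Igtp were matched in RefSeq (GRCm38.p6), 3 of the 7 genes, and 80 bases of each are shown because they carry the sequence by which interferon-responsive genes are usually recognised. Capitals mark the interferon-stimulated response element core, searched on both strands as GAAA, any 2 bases and a further GAAA, over promoters of 300 bases around each start site, and 3.44% of 32851 such promoters hold it. The Irgm1 stretch is chr11:48871403-48871482 on the minus strand, the Irgm2 stretch is chr11:58214878-58214957 on the plus strand, and the Igtp stretch is chr11:58199487-58199566 on the plus strand.
Irgm1: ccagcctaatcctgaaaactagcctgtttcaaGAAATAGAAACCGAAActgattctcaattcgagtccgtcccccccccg
Irgm2: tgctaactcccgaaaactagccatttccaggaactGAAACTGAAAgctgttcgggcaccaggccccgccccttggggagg
Igtp: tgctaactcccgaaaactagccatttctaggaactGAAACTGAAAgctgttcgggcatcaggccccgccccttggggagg
The Irgm1 run holds 2 overlapping copies of the core. In Irgm2 and Igtp a gamma-activated site, searched as TTCNNNGAA and present in 8.3% of promoters, lay just upstream of the core and did not overlap it. The palindromic estrogen response element, searched as GGTCA, any 3 bases and TGACC and present in 0.07% of promoters, was not among the letters of any of these 3 windows. A match is a description of the letters only.

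Iigp1 (also named Irga6), the best studied effector GTPase of the family, occupies chr18:60376027-60392634 on the plus strand (GRCm38). Its level was 32.7, 27.6, 44.7 and 18.4 CPM in EB mice 1 to 4, against 2.25, 1.01 and 0.396 CPM in vehicle mice 1 to 3. Raw counts behind these levels were 1000, 896, 1061 and 448 in EB mice and 58, 32 and 9 in vehicle mice. Every EB mouse was above every vehicle mouse, and the lowest EB level was 8.18 times the highest vehicle level. The means were 30.9 ± 10.9 CPM in EB mice and 1.22 ± 0.946 CPM in vehicle mice (SD). The fitted log2 change was 4.64 ± 0.48 (SE), a 24.9-fold higher level in EB mice, with 17.8-fold to 34.7-fold at 1 SE on either side. This was the second largest log2 increase of all tested genes. The vehicle mice spread more widely than the EB mice for their level, with a coefficient of variation of 35.5% in EB mice and 77.5% in vehicle mice. Vehicle 1 held most of the vehicle counts, and without it the log2 change was 5.34.

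Gm4951 (also named Ifgga2) is a predicted GTPase of the same subfamily at chr18:60212080-60247820 on the plus strand, 128 kb below Iigp1. Its counts were 86, 57, 130 and 19 in EB mice, against 8, 8 and 0 in vehicle mice, so that no vehicle library reached 10 counts. Its levels were 2.81, 1.76, 5.48 and 0.782 CPM in EB mice and 0.311, 0.253 and 0 CPM in vehicle mice. The groups did not overlap, and EB 3 was the highest and EB 4 the lowest of the EB mice. The means were 2.71 ± 2.02 CPM in EB mice and 0.188 ± 0.165 CPM in vehicle mice (SD), and the fitted log2 change was 3.71 ± 0.81 (SE). The ratio of summed counts per depth was 13.1, with an exact 95% interval of 7.96 to 23.3 that covers counting error only.

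Gm5970 is annotated as a processed pseudogene at chr18:60220843-60222058 on the plus strand, wholly inside the span of Gm4951. Its counts were 17, 29, 60 and 17 in EB mice, against 2, 1 and 1 in vehicle mice. The levels were 0.555, 0.893, 2.53 and 0.700 CPM in EB mice and 0.0777, 0.0317 and 0.0440 CPM in vehicle mice. Again the groups did not overlap and EB 3 was the highest. The ratio of summed counts per depth was 22.1 (exact 95% counting interval 8.43 to 82.6), and the fitted log2 change was 4.36 ± 0.93 (SE). Gm4951 and Gm5970 passed the low-count filter only through their EB libraries.

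Smim3 codes for a small membrane protein (also named Nid67, after its induction by nerve growth factor in rat cells) and is no GTPase. It lies at chr18:60474191-60501987 on the minus strand, 81.6 kb above Iigp1. Its level was 13.7, 9.95, 13 and 8.35 CPM in EB mice, against 3.15, 3.10 and 2.86 CPM in vehicle mice. The groups did not overlap, and the vehicle mice lay close together. The means were 11.2 ± 2.52 CPM in EB mice and 3.04 ± 0.154 CPM in vehicle mice (SD), a log2 change of 1.88 ± 0.22 (SE) or 3.69-fold.

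These chromosome 18 genes were the 4 of 7 that were called higher, beside 0.745% of all tested genes, and the 4 of 7 in which every EB mouse was above every vehicle mouse, beside 5.11% of all tested genes. As the genes were taken from this comparison, nothing is read from those shares. The calls are given as a limit only: that of Iigp1 was lost without vehicle 2 (log2 4.49), and that of Gm5970 without vehicle 1, 2 or 3 (log2 4.75, 4.08 and 4.30). That of Gm4951 was lost without any single library other than EB 4, with log2 changes of 3.17 to 4.12. Without EB 3 the log2 change of Gm5970 was 3.73. Limma-voom called neither Gm4951 nor Gm5970, and DESeq2 gave neither an adjusted p. With mitochondrial and haemoglobin genes removed, both calls were lost, and that of Gm4951 was also lost without robust fitting and with upper-quartile scaling. Over all alternatives of processing, Gm4951 was called in 7 of 19, Gm5970 in 11 of 18, Iigp1 in 19 of 20 and Smim3 in 19 of 19. These tallies include a prior count of 2, which cannot move a p and so only repeats the main call.

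The genes shared much of the order of the mice. EB 3 was the highest EB mouse for Iigp1, Gm4951 and Gm5970, and EB 1 for Smim3. EB 4 was the lowest for Iigp1, Gm4951 and Smim3, and EB 1 for Gm5970. Vehicle 1 was the highest vehicle mouse for all 4 genes. Irgm1 on chromosome 11 had the same order of EB mice as Iigp1 and Gm4951, and vehicle 1 was its highest vehicle mouse too, so this order was not particular to the chromosome 18 genes. Markers of other cell types also differed between these mice. Summed levels of 17 mural cell and fibroblast markers were 419 to 1830 CPM in EB mice, with EB 4 at the top, and 493 to 3765 CPM in vehicle mice, with vehicle 1 at the top. Ptgds alone made up most of the sum in those 2 mice, and without it the other 16 markers summed to 294 to 557 CPM in EB mice and 282 to 875 CPM in vehicle mice, with the same mice at the top. Between the groups, 0 of the 17 markers had a positive log2 change (median −0.42), beside 48.4% of all tested genes. EdgeR called 0 of the 17, and 0 had an unadjusted p under 0.05. The part of these differences in the Iigp1 order was not tested. In bulk tissue, fewer cells of a type and less RNA per cell cannot be told apart.

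**Figure D1:**
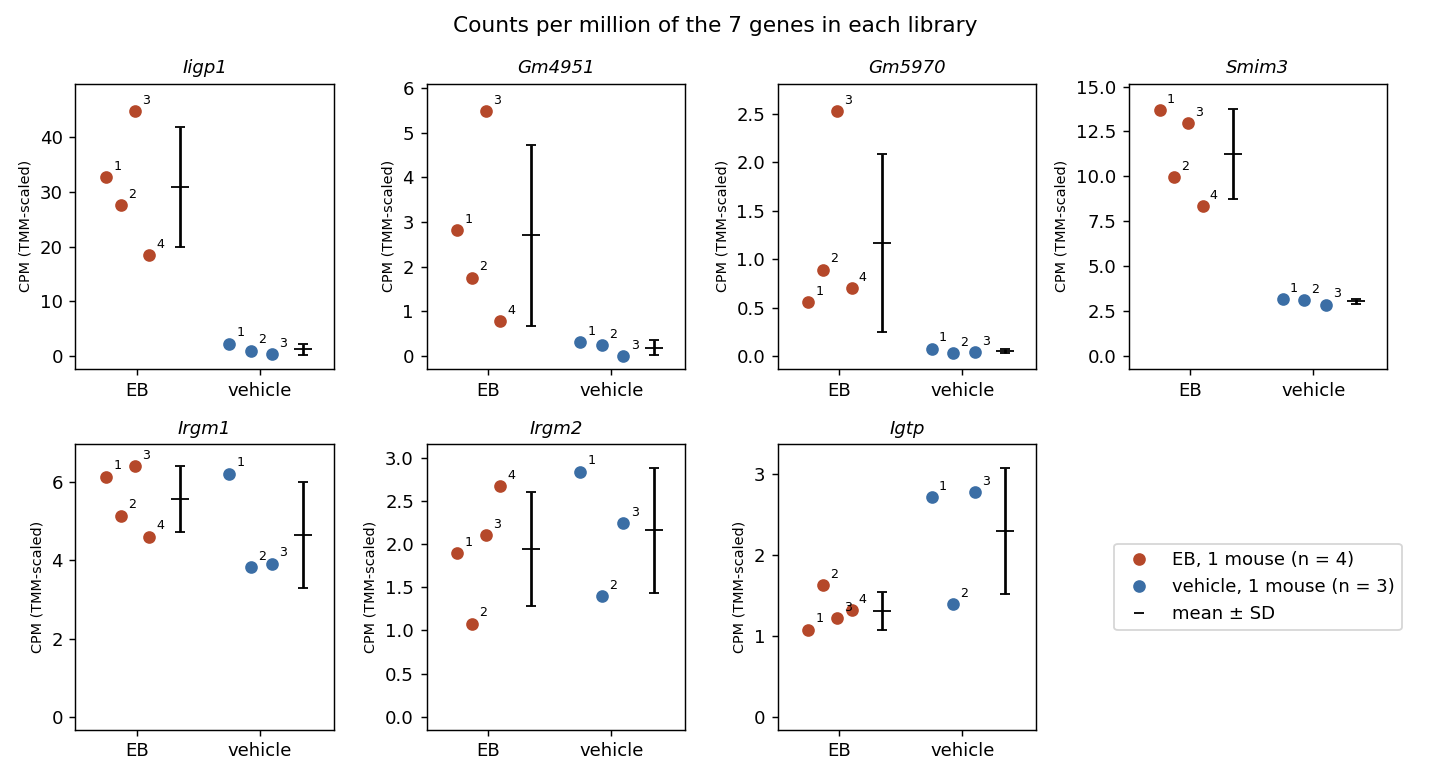
Level of each of the 7 genes in each library, in TMM-scaled CPM on a linear axis for each gene. Points are single mice numbered within the group, EB left and vehicle right, and bars are mean ± SD; the 4 chromosome 18 genes show no overlap (Iigp1 18.4 to 44.7 CPM in EB mice, 0.396 to 2.25 CPM in vehicle mice), while Irgm1, Irgm2 and Igtp overlap.

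Irgm1, the regulatory GTPase of chr11:48861968-48871683 (minus strand) that is known for roles in autophagy and in restraining the effectors, had 6.14, 5.14, 6.40 and 4.61 CPM in EB mice, against 6.22, 3.83 and 3.92 CPM in vehicle mice. The groups overlapped, because vehicle 1 was above 3 of the EB mice. The log2 change was 0.26 ± 0.23 (SE).

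Irgm2, a regulatory GTPase of chr11:58199618-58222782 (plus strand), had 1.89, 1.08, 2.11 and 2.68 CPM in EB mice, against 2.84, 1.39 and 2.25 CPM in vehicle mice. The groups overlapped almost wholly, with a log2 change of −0.16 ± 0.37 (SE) that was positive without EB 2 or without vehicle 1. Igtp (also named Irgm3), the regulatory GTPase of chr11:58199556-58207591 (plus strand), had 1.08, 1.63, 1.22 and 1.32 CPM in EB mice, against 2.72, 1.39 and 2.77 CPM in vehicle mice. Vehicle 2 lay inside the EB range, and the log2 change was −0.76 ± 0.35 (SE). None of these 3 genes was called. Irgm2 and Igtp share 7974 bp of annotated span, and 11.8% of the 50-base words of Igtp transcripts occur in Irgm2, so the division of reads between the pair is uncertain. With their counts summed, the log2 change was −0.45.

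Levels were also set per kb of annotated exon, so that genes could be compared with each other. In EB mice Iigp1 stood first at 5.30 ± 1.88 CPM per kb (SD), followed by Smim3 at 1.65 ± 0.369. Gm4951 (1.02 ± 0.765), Gm5970 (0.961 ± 0.754), Irgm1 (0.960 ± 0.145), Igtp (0.649 ± 0.116) and Irgm2 (0.525 ± 0.179) came next in EB mice, on the same scale. Ranges of mean ± SD of neighbours in that order overlapped in EB mice, except between Iigp1 and Smim3 and between Irgm1 and Igtp. In vehicle mice the order was Igtp (1.14 ± 0.387 CPM per kb), Irgm1 (0.802 ± 0.233), Irgm2 (0.585 ± 0.197), Smim3 (0.445 ± 0.0226), Iigp1 (0.210 ± 0.163), Gm4951 (0.0711 ± 0.0626) and Gm5970 (0.0421 ± 0.0196). The only neighbours in the vehicle order whose ranges did not overlap were Smim3 and Iigp1. By its mean, Iigp1 was below all 3 chromosome 11 relatives in vehicle mice and above all 3 in EB mice. The lengths are annotated union exons, and the isoforms made in this tissue were not measured.

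**Figure D2:**
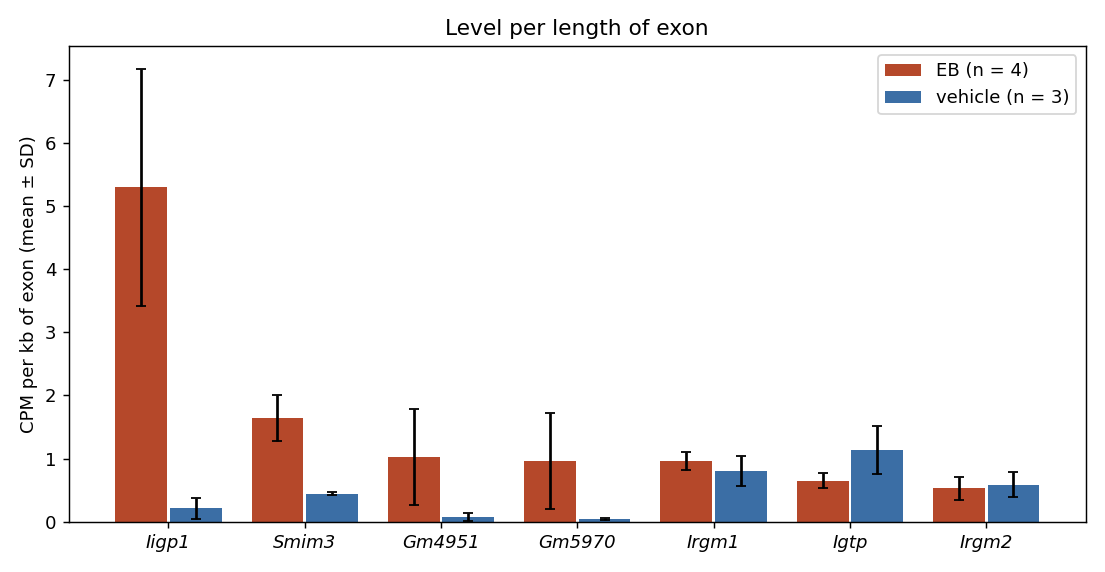
Mean level of each of the 7 genes in CPM per kb of annotated exon, with the EB bar (n = 4) left of the vehicle bar (n = 3) and error bars of 1 SD. Iigp1 is the highest gene in EB mice (5.30 CPM per kb) and the fifth of the 7 in vehicle mice (0.210 CPM per kb).

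Iigp1 gave most of the reads of the chromosome 18 GTPases in every library. It took 90.7, 91.2, 84.8 and 92.6% of the summed counts of Iigp1, Gm4951 and Gm5970 in EB mice, against 85.3, 78 and 90% in vehicle mice, where the last share rests on 10 counts. Their transcripts overlap little in sequence. Of the 50-base words in Iigp1 transcripts, 1.47% occur in Gm4951 and 0.186% in Gm5970. With the 3 genes summed into one, the log2 change was 4.54. Reads from Gm5970 and from introns of Gm4951 lie on the same strand of the same interval, so counts cannot fully tell apart Gm5970 and unspliced Gm4951 RNA.

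The same chromosome 18 cluster holds further family members, which were barely detected. F830016B08Rik (also named Ifgga4) had 4, 1, 3 and 16 counts in EB mice and 3, 0 and 0 in vehicle mice. Gm4841 (also named Ifgga3) had 8, 3, 3 and 3 counts in EB mice and 2, 0 and 0 in vehicle mice, a ratio per depth of 6.12 with an exact 95% counting interval of 1.45 to 54.6. Both lie between Gm4951 and Iigp1, and both fell below the filter on low counts.

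Elsewhere in the family, the effectors Tgtp1 and Tgtp2 had 0 to 2 counts in each EB library and 0 to 3 in each vehicle library. Gm12185 had at most 1 count in an EB library and 8, 0 and 0 counts in vehicle libraries. Irgc1 had 3 counts in EB 2 and 0 elsewhere. Gm12187 had 0 counts in all 7 libraries, which allows up to 0.0270 CPM over the EB group and 0.0375 CPM over the vehicle group. Gm5431 (log2 −1.72 ± 0.69), 9930111J21Rik1 (0.56 ± 0.67), 9930111J21Rik2 (0.05 ± 0.48) and Irgq (0.08 ± 0.10, all SE) were tested. EdgeR called 0 of these 4, with 1 at an unadjusted p under 0.05, and 0 were called by DESeq2 or limma-voom. DESeq2 gave no adjusted p to Igtp, which had 147 counts over EB mice and 177 over vehicle mice. Gm5431, 9930111J21Rik1 and 9930111J21Rik2 had fewer counts than Igtp in both groups, so nothing is read from their lack of a DESeq2 call. Irgq, a divergent relative linked to autophagy, averaged 166 ± 18.1 CPM in EB mice and 157 ± 20.1 CPM in vehicle mice (SD). Tgtp1 shares most of its sequence with Tgtp2, and 9930111J21Rik1 with 9930111J21Rik2, so their counts are uncertain. Ifi47 (also named Irgd), a family member that the list did not hold and that was named after its value was seen, had a log2 change of −0.89 ± 0.77 (SE) and was not called by edgeR.

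Beyond Smim3, the next tested genes showed no change of like size. Within 500 kb of Iigp1, 7 tested genes other than Gm4951, Gm5970 and Smim3 had log2 changes of −0.25 to 0.26, and edgeR called 0 of them, beside 0.952% of all tested genes. Of these 7, 2 had an unadjusted p under 0.05, and DESeq2 and limma-voom also called 0. In 2 of the 7, Dctn4 and Rbm22, every EB mouse was above every vehicle mouse, beside 5.11% of all tested genes. The nearest, Dctn4, a dynactin subunit 134 kb above Iigp1, averaged 293 ± 24.5 CPM in EB mice and 250 ± 4.76 CPM in vehicle mice (SD), with a log2 change of 0.23 ± 0.07 (edgeR adjusted p = 0.216). Cd74, the invariant chain of MHC class II and itself an interferon target, is a further gene of this window at −0.20 (log2). No gene below Iigp1 within 500 kb was tested other than Gm4951 and Gm5970.

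**Figure D3:**
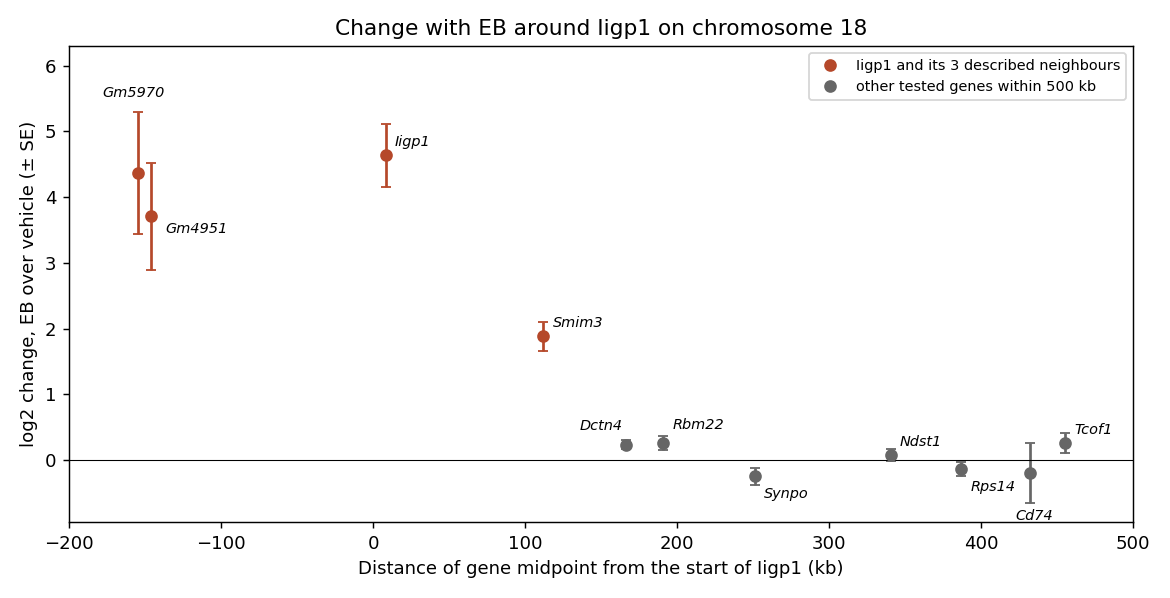
Log2 change, EB over vehicle, ± SE of each tested gene within 500 kb of Iigp1, against the distance of its midpoint from the start of Iigp1 in kb. Gm5970, Gm4951, Iigp1 and Smim3 lie at 4.36, 3.71, 4.64 and 1.88, and the 7 other genes lie between −0.25 and 0.26.

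Around the chromosome 11 relatives, 14 genes were tested within 500 kb of Irgm1 and edgeR called 1, with 3 at an unadjusted p under 0.05, beside 0.952% and 9.04% of all tested genes. DESeq2 called 2, Mgat1 and Zfp62, and limma-voom called 1. The edgeR call was Mgat1, a Golgi enzyme of N-glycan synthesis 373 kb away, at 18.9 ± 2.0 CPM in EB mice and 11 ± 1.53 CPM in vehicle mice (SD; log2 0.79 ± 0.15, edgeR adjusted p = 0.0177). The nearest tested genes on either side of Irgm1 were Gm16170 (8.47 kb below) and Gm5431 (15.7 kb above), neither called. Within 500 kb of Igtp, 12 genes other than Irgm2 were tested and edgeR called 0, with 2 at an unadjusted p under 0.05 and 0 called by DESeq2 or limma-voom.

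Other IRGs, genes of the interferon pathway and genes of autophagy were set beside Iigp1. Lists of GTPases of the family other than the 7 genes, guanylate-binding proteins, interferon receptors and their kinases and transcription factors, interferon-stimulated genes, MHC and antigen processing genes, and autophagy conjugation proteins held 105 tested genes. EdgeR called 0 of these 105, beside 0.952% of all tested genes, and 13 (12.4%) had an unadjusted p under 0.05, beside 9.04% of all tested genes. Their median log2 change was −0.11 and 35.2% were positive, beside a median of −0.01 and 48.4% over all tested genes. DESeq2 called 2 of them, Samd9l higher and Jak2 lower, where it called 1.95% of all tested genes, and limma-voom called Samd9l alone, where it called 0.816%.

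By role, 0 of 22 receptors, kinases and transcription factors of the interferon pathway were called by edgeR (median log2 −0.01), with 2 at an unadjusted p under 0.05 and Jak2 called by DESeq2. The highest levels on that list were those of Jak1, a receptor kinase with a log2 change of 0.01, and Pias1, a SUMO ligase, with −0.09. Irf9, the DNA-binding subunit of the type I interferon complex, averaged 8.81 ± 1.41 CPM in EB mice and 5.49 ± 0.834 CPM in vehicle mice (SD; log2 0.67 ± 0.19, edgeR adjusted p = 0.182).

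Guanylate-binding proteins, the larger GTPases that act beside the IRGs at vacuoles, had 0 of 7 called by edgeR, DESeq2 or limma-voom, with 2 at an unadjusted p under 0.05 and a median log2 change of −0.08. Gbp7 averaged 9.44 ± 2.21 CPM in EB mice and 9.97 ± 3.34 CPM in vehicle mice (SD), and Gbp9 averaged 2.49 ± 1.40 CPM in EB mice and 1.93 ± 1.70 CPM in vehicle mice. Gbp4 had the lowest log2 change of the 105 genes, −1.96 ± 0.49 (edgeR adjusted p = 0.105), with 0.519 ± 0.301 CPM in EB mice and 2.13 ± 0.847 CPM in vehicle mice (SD). These means were below those of Igtp, a gene that DESeq2 left without an adjusted p.

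Of 37 interferon-stimulated genes, edgeR called 0, with 5 at an unadjusted p under 0.05, and 8 were positive (median log2 −0.19). Cmpk2 and Ifi27 had the 2 highest levels on that list by the mean over all 7 libraries, and log2 changes of −0.22 and −0.23. Samd9l, an interferon-induced restriction factor, had the highest log2 change of the 105 genes. Its level was 34.2, 25.5, 43.2 and 30.6 CPM in EB mice, against 19.4, 5.76 and 7.40 CPM in vehicle mice, so the groups did not overlap. The log2 change of Samd9l was 1.63 ± 0.45 (edgeR adjusted p = 0.285), and over the 18 alternatives that can move a p its adjusted p ran from 0.000229 to 0.540. It was called in 5 of those 18, by DESeq2 (adjusted p = 0.0331), by limma-voom (0.0200), without robust fitting (0.0394), without vehicle 1 (0.000229) and without vehicle 1 and EB 4 together (0.000354, edgeR). As with Iigp1, vehicle 1 was the highest vehicle mouse and EB 3 the highest EB mouse.

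MHC and antigen processing genes (19 tested, median log2 −0.20) and autophagy conjugation proteins (16 tested, median −0.02) had 0 called by edgeR, DESeq2 and limma-voom, with 2 and 1 genes at an unadjusted p under 0.05. B2m, the light chain of MHC class I, averaged 70.9 ± 8.10 CPM in EB mice and 76.2 ± 20.6 CPM in vehicle mice (SD), and H2-D1, a class I heavy chain, had a log2 change of 0.05. Rb1cc1 and Gabarapl1, both of the autophagy machinery, had log2 changes of 0.01 and −0.08.

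**Figure D4:**
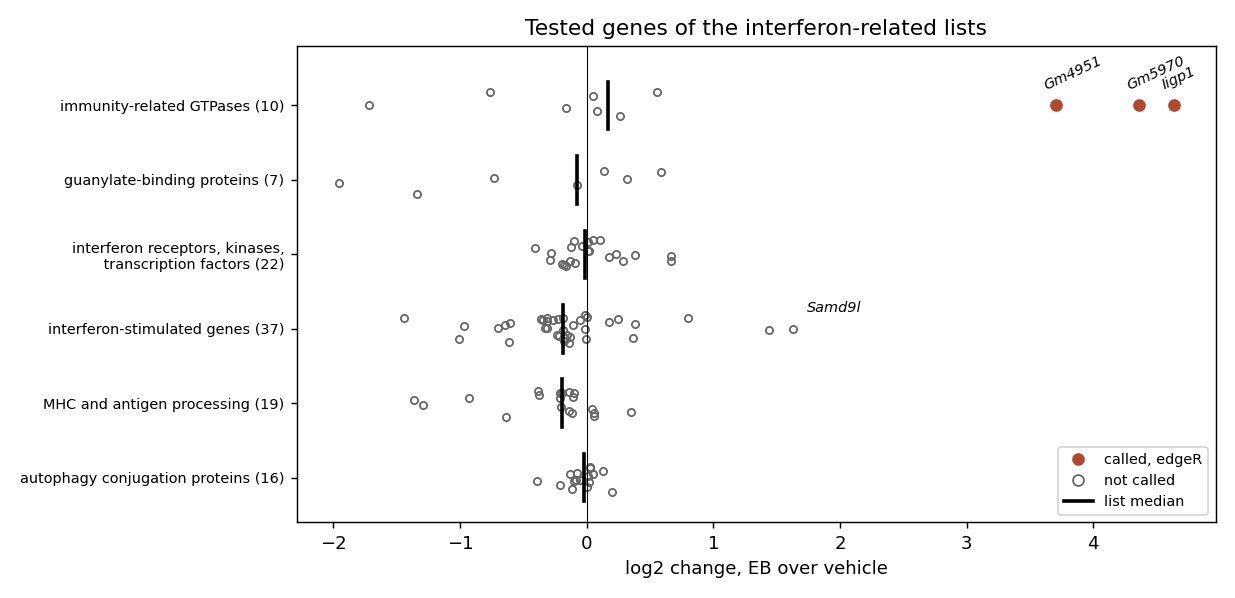
Log2 change, EB over vehicle, of each tested gene of the 6 lists of IRGs, interferon-related genes and autophagy proteins. Each list has 1 row, with the number tested in brackets and a black bar at the list median. Filled points are genes called by edgeR, which are Iigp1, Gm4951 and Gm5970, and open points are genes not called, with Samd9l (1.63) labelled.

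Lymphocytes and natural killer cells make interferon gamma, and microglia and macrophages respond to it, so markers of these cells were set beside Iigp1. Summed levels of 19 lymphocyte and natural killer markers were 10.2 to 14.0 CPM in EB mice and 8.33 to 11.9 CPM in vehicle mice, and 2 of the 19, Gzma and Gzmb, had 0 counts in all libraries. Most of that sum came from Ptprc, a leukocyte gene that microglia also make, Trbc2 and Trac, and the other 16 summed to 0.548 to 2.31 CPM in EB mice and 0.665 to 1.54 CPM in vehicle mice. Cd3e, Cd3g, Cd3d, Nkg7 and Ncr1 had at most 9 counts in any library. Summed levels of 15 microglial markers were 232 to 269 CPM in EB mice and 265 to 273 CPM in vehicle mice. Summed levels of 10 macrophage markers were 16.5 to 33.3 CPM in EB mice and 14.3 to 47.1 CPM in vehicle mice, and those of 15 endothelial markers were 236 to 310 CPM in EB mice and 265 to 409 CPM in vehicle mice. Among marker lists of cell types other than ventromedial hypothalamic neurons, edgeR called 0 of 108 tested genes, with 10 (9.26%, beside 9.04% of all tested genes) at an unadjusted p under 0.05. Of those 10, 8 were among the 15 endothelial markers, where 2 of 15 log2 changes were positive and the median was −0.32. DESeq2 called 3 of the 108 lower in EB mice, Flt1 and Abcb1a of endothelium and P2ry12 of microglia, and limma-voom called 0. The part of these cells in the Iigp1 level was not tested.

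Genes with a profile most like that of Iigp1 were ranked by the root mean square difference of centred and scaled log2 CPM over the 7 libraries. To each level 0.5 CPM was added before the log, and the median difference over all genes was 1.32. The nearest was Fam90a1b (0.0712), with 4.77, 3.88, 6.23 and 3.79 CPM in EB mice, against 1.01, 0.633 and 0.396 CPM in vehicle mice. Next came Map3k7, a kinase of cytokine signalling (0.109), Ptp4a1, a tyrosine phosphatase (0.182), Npy1r, a neuropeptide Y receptor (0.189), and Smim3 (0.191). Gm4951 ranked 97 and Gm5970 225 in likeness to Iigp1. All vehicle levels of these 2 genes were below the added 0.5 CPM, which flattens their vehicle differences, so their ranks are uncertain. Irgm1 ranked 1451, Irgm2 11208 and Igtp 17624. Every value compared here comes from the same 7 libraries, so the ranking is a description.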

How the data were processed

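RNA of 7 VMHvl samples (15 ng each) was made into libraries with the Tecan/Nugen Trio kit. Raw counts were deposited, whole numbers per gene symbol for 48321 genes, with no normalisation. HISAT2, HTSeq, DESeq2 and the mm10 build are named in the submitters' processing notes. Their versions, the annotation, the strand setting and the treatment of multiply mapped reads are not given in the sources, and genes that overlap or share sequence are affected by these.

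The filterByExpr filter (minimum count 10) left 18387 of 31222 genes with any count. After TMM scaling they were tested with edgeR 4.0.16 (robust quasi-likelihood fit, R 4.3.3, no covariate). The threshold for a call was 0.05 after Benjamini-Hochberg adjustment across the tested genes. SE is the absolute log2 change over the square root of F. The biological coefficient of variation was 22.3%. The procedure was also run on simulated counts that gave all genes the same dispersion, and its outcome is not given here. Replicate pairs differed by more than sampling noise (chi-square per degree of freedom 17.0 to 166), and each library is a separate mouse.

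The 7 genes and the gene lists were chosen with earlier results of these data known. Named are the 7 genes, other IRGs on the list, the 2 highest genes by mean CPM of each list with none called, called and nearest tested neighbours within 500 kb, and the 5 profiles most like Iigp1. Dctn4, Rbm22, Cd74, Irf9, Jak2, Gbp4 and Samd9l were named after their values were seen, as were single markers of cell types and of the tissue. Positions and exon lengths are from GENCODE M21 (GRCm38, also named mm10), and sequences and alternative names from RefSeq. Alternatives were DESeq2 1.42.0, limma-voom (limma 3.58.1), other fits, scalings, filters and prior count, summed paralogs, and each library left out. DESeq2 gave no adjusted p to some genes of low count, among them Gm4951, Gm5970 and Igtp. Genes without an adjusted p stand as not called in the DESeq2 counts given here. Figures used matplotlib 3.10.9 (Python 3.11.15).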

Additional observations from a re-analysis of the deposited data

How the results depend on the processing

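The log2 changes of Iigp1, Gm4951, Gm5970, Smim3, Irgm1 and Igtp kept their sign under every alternative. That of Irgm2, which was near 0, did not. The median log2 change of all tested genes was −0.008 in the main fit and 0.033 with total-count scaling. The count of genes called (175) was 359 with DESeq2 and 375 with no low-count filter, and 102 to 152 with 1 library left out, lowest without vehicle 3 and, at 107, without EB 1. For the 105 pathway genes (0 called), the count was 2 with DESeq2, 1 with limma-voom, 1 without robust fitting, 1 with no filter, and 0 to 1 with 1 library left out (Samd9l without vehicle 1, Gbp4 without vehicle 2). For the 108 marker genes (0 called), it was 3 with DESeq2, 3 with no filter and 0 to 2 with 1 library left out (Abcb1a and Cga without EB 4, Gad2 without vehicle 3). With 1 library left out, log2 changes were 4.27 to 5.34 for Iigp1, 3.17 to 4.12 for Gm4951, 3.73 to 4.75 for Gm5970, 1.77 to 2.0 for Smim3, 0.13 to 0.52 for Irgm1, −0.43 to 0.09 for Irgm2 and −1.06 to −0.59 for Igtp. Gm5970 was 3.82 with limma-voom and 3.28 with a prior count of 2. The cause of these differences was not tested.

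Removal of vehicle 1 and EB 4 together, and an older quasi-likelihood dispersion, were chosen after seeing the data. Without vehicle 1 and EB 4, log2 changes were 5.52 for Iigp1, 4.90 for Gm5970 and 0.60 for Irgm1, with 1 pathway gene (Samd9l) and 1 marker gene (Cga) called. No scaling moved the median of all genes by over 0.1 (log2). No paired analysis was possible because each mouse has its own number in the labels, and numbers 1 to 4 here only name mice within a group. Vehicle counts of Gm4951 and Gm5970 are too low to fix their fold.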
